A study of Mus musculus with 11 samples.

Results

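Hepatic stellate cells (HSCs) isolated after 6 weeks of carbon tetrachloride (CCl4) were compared with HSCs isolated 72 h after a single CCl4 injection. All cells of both libraries with at least 300 genes and at most 30% mitochondrial UMIs were used, which gave 5454 cells at 6 weeks and 7310 cells at 72 h, 12764 of the 30999 cells in the 5 droplet libraries. A library of 6850 HSCs from uninjured mice showed where each gene started. Each library pooled cells of 3 Pdgfrb-BAC-eGFP mice, young adult males on a C57BL/6 background in which a Pdgfrb promoter drives GFP, and cells were sorted as GFP+ CD45- CD102- after pronase and collagenase digestion and a density gradient. Chronic mice were injected repeatedly over the 6 weeks, and acute mice once after an overnight fast. CCl4 was given intraperitoneally in olive oil to both groups. Livers of the chronic group were taken sooner after the last dose than the 72 h of the acute group, so number of doses, time since the last dose, fasting and library cannot be told apart. With 1 library per condition there is no replicate and no test, and the intervals below are 95% exact intervals that cover counting error only.

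HSCs lie between hepatocytes and the sinusoidal endothelium, where they store retinoids and keep up a thin matrix. Toxic injury such as CCl4, which hepatocytes around the central vein turn into a reactive product, drives them into a myofibroblast state with contractile filaments, proliferation and fibrillar collagen. That state can recede when injury stops, while repeated injury builds scar.

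Depth differed between the libraries. The 72 h library held 86661230 UMIs (median 11344 per cell), the 6-week library 52232951 (median 9893) and the uninjured library 46389588 (median 6718). Levels are therefore given per 1000000 UMIs of a library (CPM), and shares of cells after every cell was thinned to 5000 UMIs, which left out 686 shallower cells at 72 h, 800 at 6 weeks and 1201 uninjured cells. The 72 h library stood apart in composition: ribosomal protein genes took 21.4% of its UMIs, against 16.6% at 6 weeks and 9.26% without injury. In addition, 75.2% of its cells had no UMI of the heat shock genes Hspa1a, Hspa1b, Hsph1 or Dnajb1, against 16.2% and 17.9%. That call was made at 5000 UMIs a cell, or at full depth in shallower cells, so called cells can hold such UMIs at full depth. Barcodes shared by the 72 h and 6-week libraries numbered 53. HSC markers summed to 27610 CPM in uninjured, 6343 in 72 h and 15148 in 6-week cells, and endothelial, Kupffer cell, cholangiocyte and Schwann cell lists stayed under 5 CPM in each library. Leucocyte markers summed to 6.98, 14.3 and 10.7 CPM in uninjured, 72 h and 6-week cells, hepatocyte markers to 63.4, 43.3 and 61.7 CPM, and mesothelial markers to 1.10, 34.2 and 39.2 CPM. Cells with UMIs of at least 3 of 7 fibroblast (FB) markers numbered 607 at 72 h, 221 at 6 weeks and 2 without injury. The name FB-marker cells is used for them below as a description, since activated HSCs may also carry these genes. Their numbers were counted at full depth, without thinning, and so depend on the depth of each library. Summed, the 7 markers stood at 14.1 CPM in uninjured, 172 in 72 h and 223 in 6-week cells, an order unlike that of the cell numbers.

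Of 5838 genes with at least 20 CPM in either injured library, 294 were at least 2-fold higher at 6 weeks (5.04%) and 224 at least 2-fold lower (3.84%). The other genes were mostly close, with 4406 (75.5%) within 1.5-fold, and the median log2 ratio over all genes was -0.04. The lower genes reached further: 64 were at least 5-fold lower and 24 at least 5-fold higher. A level near that of uninjured HSCs was the most frequent end point on both sides, for 179 of the 294 higher genes and 117 of the 224 lower genes. At least 2-fold above the uninjured level were 48 of the 294 higher and 44 of the 224 lower genes. That share was 3.3% over 6306 genes with at least 20 CPM in any of the 3 libraries. At least 2-fold below it were 12 of the 294 and 9 of the 224, against 1.55% of the 6306 genes. Both sets thus held more genes 2-fold away from the uninjured level than all genes did. The share of all genes near the uninjured level at 6 weeks was not counted, so the 179 and 117 genes are not read as a particular return to it.

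**Figure D1:**
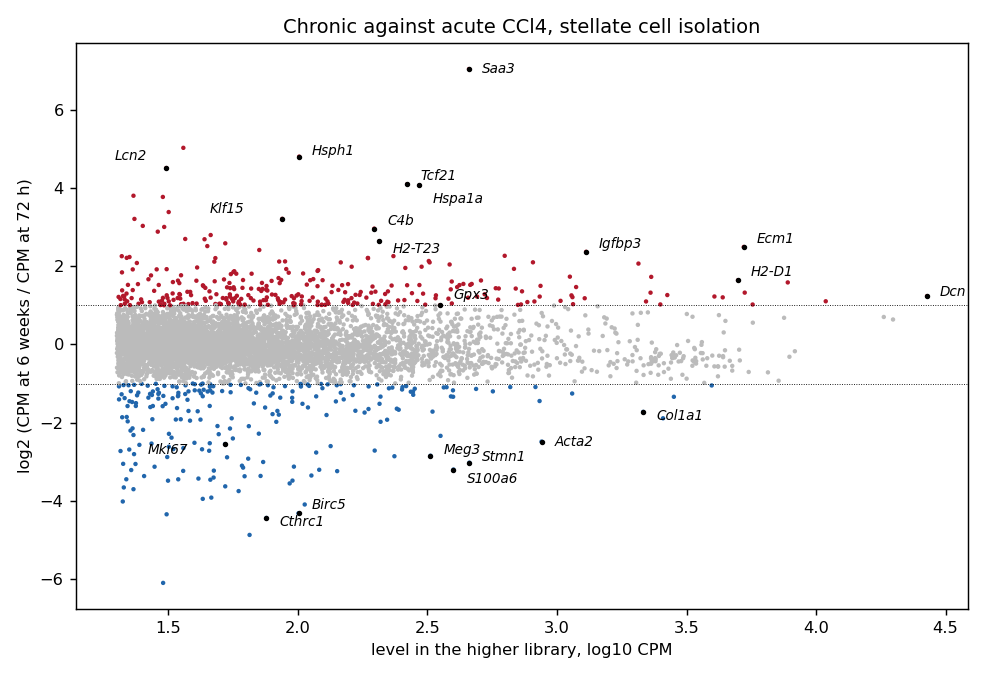
Each point is 1 of the 5838 genes, with the level in the higher of the 2 injured libraries on the x axis (log10 CPM) and the log2 ratio of 6 weeks to 72 h on the y axis. Red points are the 294 genes at least 2-fold higher at 6 weeks and blue points the 224 at least 2-fold lower. Saa3 stands furthest up, and Cthrc1 and Birc5 lie among the furthest down.

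Promoter windows are shown for 6 genes from 3 of the groups described below, namely cell division genes, heat shock genes and genes of the interferon and MHC class I group. They come from RefSeq (GRCm38.p6), run from 250 bases before to 50 bases after the start site, are read 5′ to 3′ on the gene's strand, and carry the motif searched for in capitals on either strand. In Ccnb2 (minus strand, chr9:70421505-70421804), which encodes cyclin B2, and Mki67 (minus strand, chr7:135716330-135716629), a marker of cycling cells, the capitals mark TTTGAA, the core of the cell cycle homology region.
Ccnb2: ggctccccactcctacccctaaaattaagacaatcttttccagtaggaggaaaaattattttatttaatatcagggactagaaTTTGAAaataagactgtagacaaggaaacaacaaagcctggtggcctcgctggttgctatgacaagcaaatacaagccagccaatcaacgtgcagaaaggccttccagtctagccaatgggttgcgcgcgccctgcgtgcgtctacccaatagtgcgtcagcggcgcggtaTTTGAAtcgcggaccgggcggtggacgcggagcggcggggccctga
Mki67: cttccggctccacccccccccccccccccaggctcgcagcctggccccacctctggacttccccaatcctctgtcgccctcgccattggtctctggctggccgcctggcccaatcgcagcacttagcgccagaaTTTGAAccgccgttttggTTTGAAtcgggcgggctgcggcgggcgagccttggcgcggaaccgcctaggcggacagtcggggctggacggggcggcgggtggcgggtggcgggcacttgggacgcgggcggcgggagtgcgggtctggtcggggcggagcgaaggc
In Hsph1 (minus strand, chr5:149636287-149636586) and Hspa1a (minus strand, chr17:34972107-34972406), which encode chaperones of the HSP110 and HSP70 families, the capitals mark GAANNTTC, the core of the heat shock element.
Hsph1: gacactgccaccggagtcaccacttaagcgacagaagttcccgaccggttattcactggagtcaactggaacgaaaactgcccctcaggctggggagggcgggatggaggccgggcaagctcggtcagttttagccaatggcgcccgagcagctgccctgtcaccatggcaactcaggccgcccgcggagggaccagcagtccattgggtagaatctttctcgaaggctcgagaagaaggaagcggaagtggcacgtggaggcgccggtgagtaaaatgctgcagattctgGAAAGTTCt
Hspa1a: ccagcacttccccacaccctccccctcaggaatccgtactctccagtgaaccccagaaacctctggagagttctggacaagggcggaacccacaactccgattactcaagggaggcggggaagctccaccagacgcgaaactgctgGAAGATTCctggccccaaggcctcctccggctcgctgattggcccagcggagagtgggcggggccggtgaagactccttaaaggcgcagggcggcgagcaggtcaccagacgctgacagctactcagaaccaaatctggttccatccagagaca
In H2-T23 (minus strand, chr17:36032652-36032951), a non-classical MHC class I gene, and Ifit1 (plus strand, chr19:34640639-34640938), an antiviral effector, the capitals mark GAAANNGAA, the core of the interferon response element, here read on the opposite strand and in Ifit1 as 3 matches of which the first 2 overlap.
H2-T23: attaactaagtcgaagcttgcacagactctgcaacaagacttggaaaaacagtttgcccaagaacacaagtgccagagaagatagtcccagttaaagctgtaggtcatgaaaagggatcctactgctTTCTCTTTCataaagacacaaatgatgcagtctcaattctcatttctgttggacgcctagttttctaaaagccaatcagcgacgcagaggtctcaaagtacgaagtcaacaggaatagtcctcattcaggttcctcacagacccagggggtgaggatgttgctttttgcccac
Ifit1: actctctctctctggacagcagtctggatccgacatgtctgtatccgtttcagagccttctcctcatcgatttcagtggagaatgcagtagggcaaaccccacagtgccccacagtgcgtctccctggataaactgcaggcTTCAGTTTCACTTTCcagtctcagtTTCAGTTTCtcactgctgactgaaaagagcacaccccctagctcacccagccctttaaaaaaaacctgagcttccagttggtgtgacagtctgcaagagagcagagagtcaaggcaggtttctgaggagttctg
TTTGAA occurred in windows of 16 of 21 mitosis genes found in RefSeq, against 20.2% of 27025 gene symbols with a window. GAANNTTC occurred for 8 of 9 heat shock genes, against 9.04%, and GAAANNGAA for 11 of 15 interferon response genes and 2 of 9 MHC class I genes, against 9.76%. The window of Irf7, a further interferon response gene, was also searched for GAAANNGAA. It held no match and is not shown. The matches describe letters in a window and do not show that a factor was bound.

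Mitosis genes were lower at 6 weeks than at 72 h. All 26 members of the list, with no minimum level, were at least 2-fold lower at 6 weeks, with a median log2 ratio of -3.23 against -0.04 over the genes compared. Of these, 24 reached 20 CPM, 21 of them at 72 h alone, so that the minimum itself favoured genes high at 72 h. Ccnb2 stood at 4.94 CPM in uninjured, 142 in 72 h and 14.99 in 6-week cells, which is 9.46 times lower at 6 weeks than at 72 h. Birc5, the survivin subunit of the chromosomal passenger complex, stood at 2.61, 100.5 and 5.04 CPM. The summed level of the list was 146 CPM without injury, 2146 at 72 h and 261 at 6 weeks. The 6-week level was thus nearer to the uninjured level than to the 72 h level, and above the uninjured one. Over the 24 genes at 20 CPM the median log2 ratio of 6 weeks to uninjured was 0.90. Mki67 was 5.85 times lower at 6 weeks (52.3 against 8.94 CPM), and at 6 weeks it also lay below its uninjured level of 14.6 CPM.

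Cells in cycle were also fewer. Cells with at least 2 of Mki67, Cdca8, Cdc20, Ccna2 and Ccnb1 made up 14.2% of thinned cells at 72 h (95% interval 13.4 to 15.1%) and 1.18% at 6 weeks (0.891 to 1.54%), against 0.460% without injury. Outside these dividing cells Ccnb2, which was not used to pick them, was at 51.5 CPM at 72 h and 5.57 CPM at 6 weeks. That is 9.26 times lower, close to the 9.46 of all cells. Mki67, which was used, was at 10.1 and 4.88 CPM there, and at 11.4 CPM in the uninjured library. Most uninjured Mki67 UMIs, 526 of 677, thus lay outside the cells called dividing. Within the dividing cells Ccnb2 was at 546 and 588 CPM. A Ccnb2 UMI was seen in 24.6% of thinned 72 h cells, so the rule can leave cycling cells among the rest. The split therefore does not show a difference in cells out of cycle. Without the dividing cells only 5 mitosis genes still reached 20 CPM, of which 4 were at least 2-fold lower (median log2 ratio -2.66), and the count of all lower genes dropped from 224 to 144. Of 18 DNA replication genes 12 were at least 2-fold lower at 6 weeks with no minimum level, and the summed level of the list was 252 CPM in uninjured, 286 in 72 h and 151 in 6-week cells. Only 4 reached 20 CPM, among them Tk1, a thymidine kinase (42.9 against 2.78 CPM), and Tyms, thymidylate synthase (22.6 against 4.90 CPM), both through the 72 h library alone. With cells thinned to 5000 UMIs, 1 of 3 was lower and the median log2 ratio was 0.25.

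Acta2, Col1a1, Col1a2, Col3a1 and Lox, genes of the myofibroblast state, were lower at 6 weeks than at 72 h and above the uninjured level. Acta2, the smooth muscle actin that defines the state (GRCm38 chr19:34241090-34255590, minus strand), stood at 26.0 CPM in uninjured, 872 in 72 h and 156 in 6-week HSCs. Its 6-week level was 5.603 times lower than at 72 h (ratio 0.1785, interval 0.1744 to 0.1826) and 5.97 times the uninjured level. Of 18 contractile and cytoskeletal genes measured, Acta2 and Tpm1, a tropomyosin (388 against 826 CPM), were the 2 at least 2-fold lower, and none was higher (median log2 ratio -0.48), while 3.84% of all genes were as much lower. Summed over all 21 members, the list stood at 6408 CPM in uninjured, 10197 in 72 h and 6464 in 6-week cells. The share of thinned cells with an Acta2 UMI was 59.4% at 72 h (58.2 to 60.6%), 17.1% at 6 weeks (15.99 to 18.2%) and 3.36% without injury. Acta2 was also more concentrated at 6 weeks, where the 100 cells with the most Acta2 UMIs held 58.3% of them, against 18.96% for the same number of cells at 72 h. No cell in either injured library carried UMIs of all 3 vascular smooth muscle markers counted, Pln, Myh11 and Cnn1. Acta2, Tagln and Tpm2 were left out of this count. A rule that needs all 3 can miss smooth muscle cells, so the count does not show that they were absent.

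Of 12 fibrillar and associated collagen genes at 20 CPM, 5 were at least 2-fold lower at 6 weeks and none higher, with a median log2 ratio of -0.62. Among all genes compared, 3.84% were as much lower and 5.04% as much higher. Col1a1, the main chain of type I collagen, stood at 201 CPM in uninjured, 2151 in 72 h and 650 in 6-week cells. Col1a2 followed at 590, 2825 and 1116 CPM, and Col3a1, the type III collagen, at 1244, 3954 and 1910 CPM. The thinned share of cells with a Col1a1 UMI went from 45.4% without injury to 92.3% at 72 h and 72.7% at 6 weeks, and the share with at least 10 such UMIs from 0.425% to 38.8% and 6.49%. A single UMI can be free RNA, and no background share was measured for Col1a1. Col5a2 and Col12a1, chains of collagens that assemble with type I fibrils, completed the 5, at 155 and 4.65 CPM at 6 weeks against 390 and 23.2 CPM at 72 h.

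A few enzymes and partners that assemble the fibril were also lower. Lox, which crosslinks collagen, stood at 2.48 CPM in uninjured, 82.5 in 72 h and 20.9 in 6-week cells, and Loxl1, a related enzyme, was 118 against 273 CPM. Of the 16 enzymes measured, these 2 were at least 2-fold lower at 6 weeks and P4ha1, a prolyl hydroxylase subunit, was higher (163 against 80.8 CPM). The median log2 ratio of the 16 was -0.12. Over all genes 3.84% were as much lower and 5.04% as much higher, so these counts are no result about the enzyme list. Cthrc1, a secreted protein of activated fibroblasts, stood at 0.173, 75.6 and 3.48 CPM, or 21.7 times lower at 6 weeks. It was seen in 20.4% of thinned cells at 72 h and 0.967% at 6 weeks. Among 19 matricellular and other matrix genes, Eln (elastin), Fmod (fibromodulin) and Ltbp2, a protein of elastic fibres, were with Cthrc1 the 4 at least 2-fold lower, while Dcn (decorin, 26825 against 11394 CPM) and Ecm1 were higher. These counts stand against the same 3.84% and 5.04%, and 2 of the 19 reached 20 CPM at 72 h alone. Timp1, an inhibitor of matrix proteases, was 54.0 CPM at 6 weeks against 181 at 72 h, and Mmp2, a gelatinase, was 338 against 170 CPM. Of 14 matrix proteases and inhibitors measured, Timp1 was the 1 at least 2-fold lower. A gene other than Mmp2 was the 1 at least 2-fold higher, and the median log2 ratio was -0.02. Beside the shares of all genes, 1 gene each way is no result about the list.

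The gaps of Col1a1, Col1a2, Col3a1 and Timp1 were smaller in FB-marker cells than in the rest. In FB-marker cells Timp1 was at 349 CPM at 72 h and 356 at 6 weeks, a ratio of 1.02, against 157 and 37.7 CPM in cells with no markers of another type. Col1a1 was at 4378 and 2831 CPM in FB-marker cells, and at 1851 and 533 CPM in the others. Acta2 went the other way, at 1789 and 155 CPM in FB-marker cells and 750 and 141 CPM in the others. Small classes of cells did not share its gap. In dividing cells, 60 of them at 6 weeks, Acta2 was at 823 and 692.5 CPM, or 1.19 times lower. In cells with hepatocyte markers, 19 at 72 h and 77 at 6 weeks, it was at 332.5 and 965 CPM. Those 77 cells held 10.7% of the 6-week Acta2 UMIs.

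**Figure D2:**
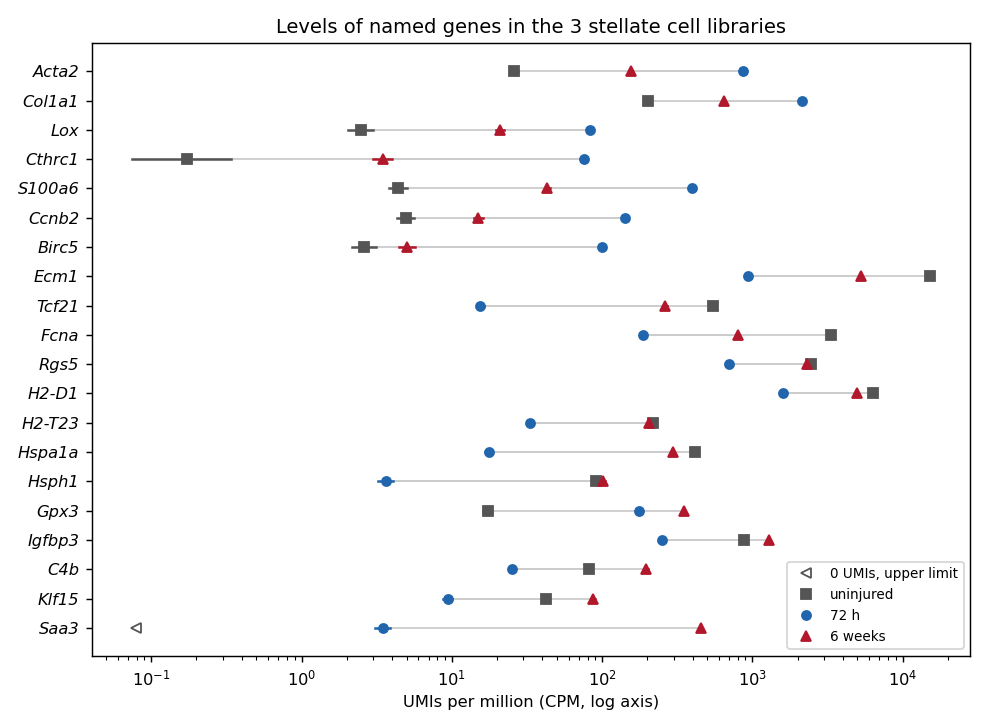
Levels of 20 named genes in uninjured (grey squares), 72 h (blue circles) and 6-week (red triangles) HSCs, in CPM on a log axis, with 95% exact Poisson intervals that are mostly narrower than the symbols. From Acta2 to Birc5 the red symbol lies between the grey and the blue, and from Ecm1 to Hsph1 blue is lowest, with red at or below grey except for Hsph1. From Gpx3 to Saa3 red lies highest, and Saa3 had 0 UMIs in uninjured cells after filtering, so the open symbol is the upper limit for a count of 0. That limit does not cover UMIs set to 0 by the filter, which needs a gene in at least 3 cells.

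Part of the genes of resting HSCs were low at 72 h and higher at 6 weeks. Of 26 stellate homeostasis genes, 13 were at least 2-fold below the uninjured level at 72 h and 5 at 6 weeks, against 9.67% and 1.55% of all genes. Of 25 compared between the injured states, 10 were at least 2-fold higher at 6 weeks and none was 2-fold lower (median log2 ratio 0.28). For all genes those shares were 5.04% and 3.84%. Tcf21, a transcription factor of resting mesenchymal cells, stood at 551 CPM in uninjured, 15.4 in 72 h and 264 in 6-week HSCs, a 17.1-fold difference between the injured states (interval 16.2 to 18.1). Ecm1, a secreted matrix protein and the most abundant HSC marker, stood at 15299, 935 and 5260 CPM. Fcna, the lectin ficolin A, stood at 3327, 188 and 807 CPM.

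These genes differed in how near the 6-week level was to the uninjured one. Rgs5, a regulator of G protein signalling, was at 2471 CPM in uninjured, 698 in 72 h and 2310 in 6-week cells, and Reln, the matrix glycoprotein reelin, at 1405, 564 and 1279 CPM, both within 1.5-fold of the uninjured level at 6 weeks. Tcf21, Ecm1 and Fcna stayed 2.09, 2.91 and 4.12 times below theirs. Ecm1 was detected in 90.5% of thinned cells at 72 h and 99.96% at 6 weeks, with a median of 4 UMIs a cell at 72 h, 24 at 6 weeks and 77 without injury. Of 19 vitamin A storage and lipid droplet genes 9 reached 20 CPM, and none of these passed 2-fold either way (median log2 ratio 0.34). With no minimum level 3 of the 19 were at least 2-fold lower at 6 weeks and none higher (median -0.19). Given the shares of all genes, none of 9 is no result about the list.

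Heat shock genes were higher at 6 weeks as a group, with 9 of 12 members at least 2-fold higher and none lower (median log2 ratio 1.53). All genes compared gave 5.04% higher and 3.84% lower. At 72 h, 9 of the 12 had been at least 2-fold below the uninjured level, against 9.67% of all genes. None of these 9 was still 1.5-fold below it at 6 weeks. Hsph1 stood at 91.6 CPM in uninjured, 3.62 in 72 h and 101 in 6-week cells, a 27.9-fold difference (24.9 to 31.4). Hspa1a stood at 414, 17.6 and 294 CPM. Its near-identical neighbour Hspa1b shares reads with it, so the split between them is uncertain. Hspa1a was found in 57.6% of uninjured, 6.58% of 72 h and 50.8% of 6-week thinned cells. Heat shock genes are known to answer to protein damage and also to tissue handling, and how the handling of the libraries compared was not tested. Immediate early genes, which answer to both as well, were at least 2-fold higher at 6 weeks for 6 of 18 members and lower for none.

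Antigen presentation and interferon response genes were higher as well. Of 10 MHC class I genes measured 6 were at least 2-fold higher at 6 weeks, and all 6 had been at least 2-fold below the uninjured level at 72 h. The shares of all genes were 5.04% for the first and 9.67% for the second of these changes. H2-T23 stood at 217 CPM in uninjured, 33.1 in 72 h and 206 in 6-week cells (6.22-fold, 5.96 to 6.48). H2-D1, a classical class I heavy chain whose reads can be shared with its paralogs, stood at 6367, 1604 and 4997 CPM, and B2m, the light chain, at 10931, 5074 and 10895 CPM. At 6 weeks 5 of the 6 were within 1.5-fold of the uninjured level, and Tap2, a peptide transporter subunit, was not (133, 35.3 and 71.5 CPM).

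Of 19 interferon response genes 10 were at least 2-fold higher at 6 weeks and 1 lower, and 2 were also at least 2-fold above the uninjured level. The corresponding shares of all genes were 5.04%, 3.84% and 3.3%. Irf7, a master regulator of interferon genes, stood at 145, 149 and 412 CPM. Ifit1 stood at 141, 86.9 and 222 CPM, and Igtp, an interferon-induced GTPase, at 85.4, 36.0 and 115 CPM. Ifi27 was the exception, at 325, 253 and 119 CPM. In cells called without a UMI of the 4 heat shock genes, 3 of 18 interferon genes compared were 2-fold higher, in place of 10 of 19. The median log2 ratio was 0.59 in place of 1.04. For MHC class I genes it was 4 of 10 in place of 6, with a median of 0.81 in place of 1.06. The called cells were not free of heat shock RNA: their full counts held Hspa1a at 6.1 CPM at 72 h and 38.2 CPM at 6 weeks. Of 11 heat shock genes compared in them, 6 were still 2-fold higher. They were 75.2% of the 72 h cells but 16.2% of the 6-week cells. Whether the interferon difference goes with heat shock was not tested. In those cells H2-T23 was still 33.1 CPM at 72 h and 159 CPM at 6 weeks.

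**Figure D3:**
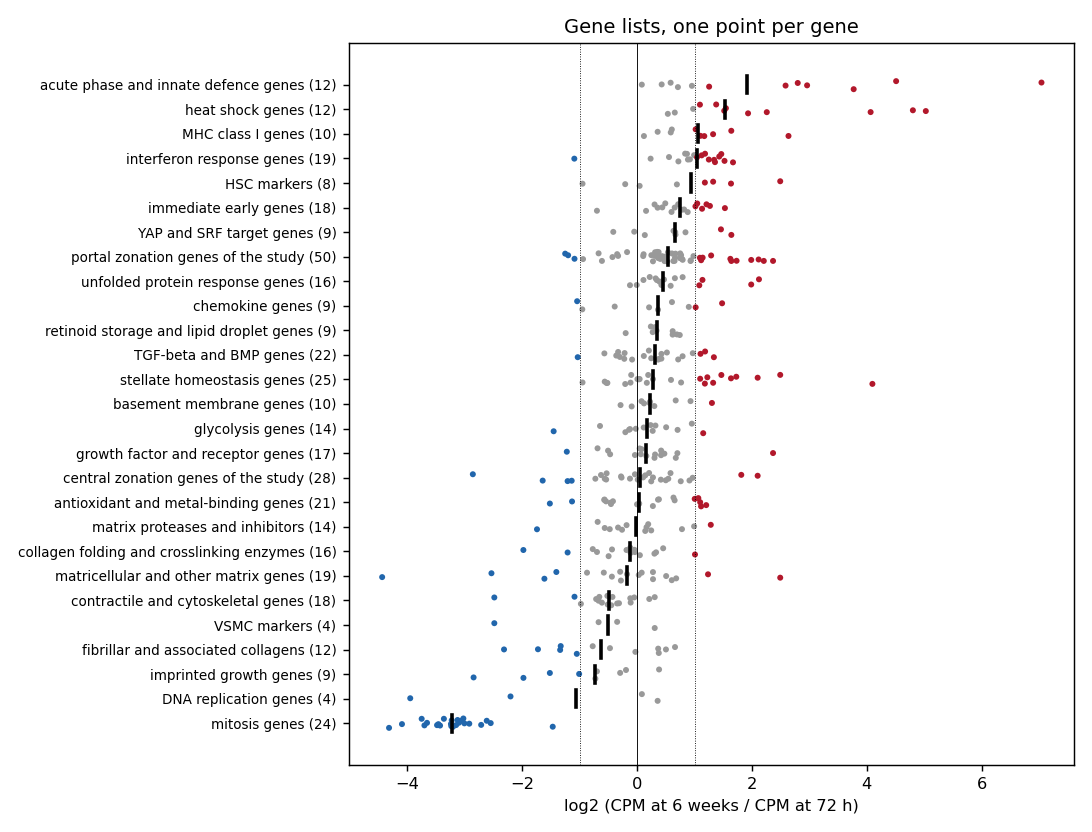
Log2 ratios of 6 weeks to 72 h for the members of each gene list with at least 4 members measured, 1 point per gene, with list sizes in brackets and a bar at the list median. Mitosis genes lie far to the left (median -3.22), and acute phase (1.92) and heat shock genes (1.53) lie furthest to the right. The rank of the acute phase list depends on the 20 CPM minimum. With no minimum its median over 21 members was 1.25, below that of the heat shock genes.

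Saa3 (GRCm38 chr7:46711998-46715700, minus strand), a serum amyloid A of the acute phase, had the highest ratio of all genes. It had 0 UMIs in uninjured cells after filtering, 3.47 CPM at 72 h and 457 CPM at 6 weeks, a 132-fold difference (117 to 148). If uninjured cells held at most 3 UMIs (0.0647 CPM, the floor), the 6-week level was at least 7073-fold above the uninjured one. With counting error on the floor and on the 6-week count, the interval of this ratio started at 2420. Neither value is a firm bound, since the filter sets a gene seen in fewer than 3 cells to 0. Such cells, if rich in Saa3, would have been missed. The 6-week level did not describe the library as a whole. At 6 weeks, 21 cells with 10 or more Saa3 UMIs, 0.385% of 5454, held 90.3% of all Saa3 UMIs, with up to 4920 in 1 cell. Of these 21 cells 19 were FB-marker cells. In the 21 cells HSC markers summed to 2156 CPM and FB markers to 3147 CPM, against 15245 and 556 CPM in cells with no Saa3 UMI. Mesothelial markers were higher in the 21 cells too, at 163 against 39.15 CPM. Without the 21 cells the 6-week level was 44.7 CPM. The 10 cells with 10 or more Saa3 UMIs at 72 h, of which 6 were FB-marker cells, held 79.7% of that library's 301 UMIs.

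Without cells bearing markers of another type, Saa3 was 37.5-fold higher at 6 weeks (79.9 against 2.13 CPM). The remaining cells held 16.3% of the Saa3 UMIs at 6 weeks and 53.8% at 72 h. All cells with 1 to 9 Saa3 UMIs together held less, 9.69% and 20.3%. A few Saa3-rich cells were thus still among the remaining cells of both libraries, and the 37.5-fold ratio does not describe the rest. The FB-marker cells alone stood at 7400 against 13.5 CPM. Low Saa3 counts were spread widely at 6 weeks: 19.8% of thinned cells without other-type markers had a UMI (18.6 to 21.0%, median depth 9824 UMIs), against 0.316% at 72 h (0.191 to 0.494%). In the 73 thinned hepatocyte-marker cells of the 6-week library the share was 13.7% (6.77 to 23.8%, median depth 11219 UMIs), an interval that includes the share of the other cells. These hepatocyte-marker cells also carried Ecm1 at 5162 CPM, so they are no clean reference for a cell type without Saa3. Whether the scattered UMIs are free RNA from the few rich cells was not tested, and they are not read here as expression in HSCs.

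**Figure D4:**
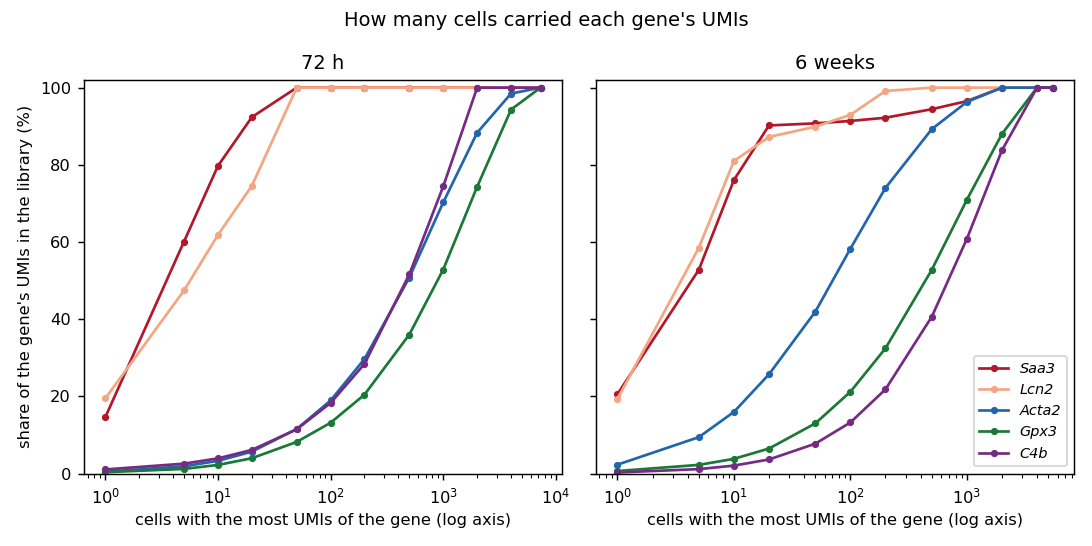
Share of a gene's UMIs (y axis, %) held by the cells with the most UMIs of that gene (x axis, log scale), at 72 h and 6 weeks. Saa3 and Lcn2 UMIs sat in a few cells of both libraries, Acta2 was more concentrated at 6 weeks than at 72 h, and Gpx3 and C4b were spread over far more cells.

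Other acute phase and innate defence genes differed in how much of their signal lay in FB-marker cells. Of 12 measured, 7 were at least 2-fold higher at 6 weeks (median log2 ratio 1.92), against 5.04% of all genes. Of the 12, 5 reached 20 CPM at 6 weeks alone, so that the minimum itself favoured genes high at 6 weeks. With no minimum level, 11 of 21 members were at least 2-fold higher and none lower (median 1.25). The counts moved with the cells used: with cells thinned to 5000 UMIs 5 of 10 were higher (median 1.08), and without other-type cells also 5 of 10 (median 1.075). Lcn2 (lipocalin 2, 31.0 against 1.36 CPM), Hp (haptoglobin, 30.1 against 2.20 CPM) and C3 (complement C3, 46.0 against 6.62 CPM) had 76.6%, 70.9% and 55.4% of their 6-week UMIs in the 221 FB-marker cells, and Saa3 83.5%. C4b, a complement C4 gene with a close paralog, had 11.3% there and Cfb, complement factor B, 2.56%. Few FB-marker cells carried Lcn2 or Hp: at 6 weeks a UMI was seen in 10.9% and 11.85% of them after thinning, and C3 in 33.2%. The 10 cells with the most Lcn2 UMIs held 81% of that gene's 6-week UMIs. The Lcn2 and Hp shares are therefore not read as a trait of all 221 cells. C4b stood at 82.1 CPM in uninjured, 25.3 in 72 h and 197 in 6-week cells (7.78-fold, 7.43 to 8.15), and was seen in 28.3%, 11.01% and 50.5% of thinned cells. Without other-type cells it was 7.70-fold higher.

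Gpx3 (GRCm38 chr11:54902453-54910377, plus strand), a secreted selenium-dependent peroxidase and an FB marker of the study, was stepwise higher: 17.3 CPM in uninjured, 176 in 72 h and 353 in 6-week cells. Its ratio of 2.00 (1.96 to 2.05) sits on the 2-fold line. Thinned shares of cells with a Gpx3 UMI were 6.16%, 47.0% (45.8 to 48.2%) and 54.9% (53.5 to 56.4%). FB-marker cells, which were called without Gpx3, held 20.7% of its UMIs at 72 h and 18.6% at 6 weeks, and without other-type cells the levels were 159 and 304 CPM. In cells with no heat shock UMI they were 174 and 623 CPM. Other antioxidant genes split, with 5 of 21 at least 2-fold higher at 6 weeks, among them Sod3, the extracellular superoxide dismutase (4361 against 1894 CPM) and the metallothionein Mt2 (1032 against 477 CPM), and 2 lower, Gpx7 and Prdx4, both peroxidases of the secretory pathway. The count of 5 was 3 after thinning to 5000 UMIs, 2 in cells with no heat shock UMI and 1 without dividing cells. With 5.04% of all genes as much higher and 3.84% as much lower, these counts are not read as a result about the list.

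Against the uninjured library, 6306 genes had at least 20 CPM in any of the 3. At 72 h, 422 were at least 2-fold higher (6.69%) and 610 at least 2-fold lower (9.67%). At 6 weeks the counts were 208 (3.3%) and 98 (1.55%). Both comparisons share the uninjured library. A difference at 72 h was said to persist where the gene was still at least 2-fold away in the same direction at 6 weeks, and to vanish where it was under 1.5-fold away or on the other side. Different mice were used for each library, so these names compare levels and follow no cell in time. The counts moved with scaling: scaled by the median ratio over genes, 539 genes were higher and 418 lower at 72 h, or 56.3% higher in place of 40.9%, and the median of all genes shifted by 0.17 at 72 h and 0.19 at 6 weeks on the log2 scale. With ribosomal protein genes left out of the totals, 62.1% were higher, and the shifts were 0.22 and 0.13.

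Of the 422 genes higher at 72 h, 148 persisted (35.1%), 160 had vanished (37.9%) and 114 lay between. The persisting genes included Ltbp2 (0.0647, 74.7 and 24.4 CPM in uninjured, 72 h and 6-week cells), S100a6, a calcium-binding protein (4.42, 398 and 43.3 CPM), Figf, the growth factor VEGF-D (1.16, 113 and 11.03 CPM), Acta2, Col1a1 and Lox. Persisting did not mean level: only 38 of the 148 were higher at 6 weeks than at 72 h, by any amount, and S100a6 was 9.20 times lower. The imprinted transcription factor Plagl1 also persisted, at 16.7, 208 and 52.9 CPM. Of 24 mitosis genes 9 persisted by this rule, from uninjured levels of a few CPM.

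Cell cycle genes were among the vanished ones: Top2a, a topoisomerase of dividing cells, stood at 7.57, 71.7 and 6.97 CPM, and Cks1b, a cyclin-dependent kinase subunit, at 13.1, 118 and 17.3 CPM. Meg3, an imprinted non-coding RNA, stood at 63.7, 325 and 45.1 CPM, and Lgals1, the lectin galectin 1, at 603, 2566 and 693 CPM. For 3 of the 160, Mki67, Ier5l and Sectm1a, the 6-week level was at least 1.5-fold below the uninjured one. They were picked out after their values were seen, as were the genes on the other side given next.

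Of the 610 genes lower at 72 h, 69 persisted (11.3%), 322 had vanished (52.8%) and 219 lay between. The persisting genes held 5 of the stellate homeostasis list, with Tcf21, Fcna and Ecm1 among them, and further Hhip, an inhibitor of hedgehog ligands (147, 15.1 and 43.0 CPM), and Angptl6, an angiopoietin-like secreted protein (2696, 429 and 1185 CPM). Only 8 of these 69 were lower at 6 weeks than at 72 h, by any amount. The vanished genes included 9 heat shock, 5 MHC class I and 2 interferon response genes. For 9 of the 322 the 6-week level exceeded the uninjured one by at least 1.5-fold: Klf15, C4b, Irgm1, Rgs4, Errfi1, Ddit4, Acer2, Pydc3 and Pydc4. Klf15, a transcription factor of metabolic genes, stood at 42.5, 9.39 and 87.0 CPM and was seen in 18.96%, 4.63% and 34.2% of thinned cells. Igfbp3, a carrier of insulin-like growth factors, came close to that pattern at 873, 251 and 1295 CPM.

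**Figure D5:**
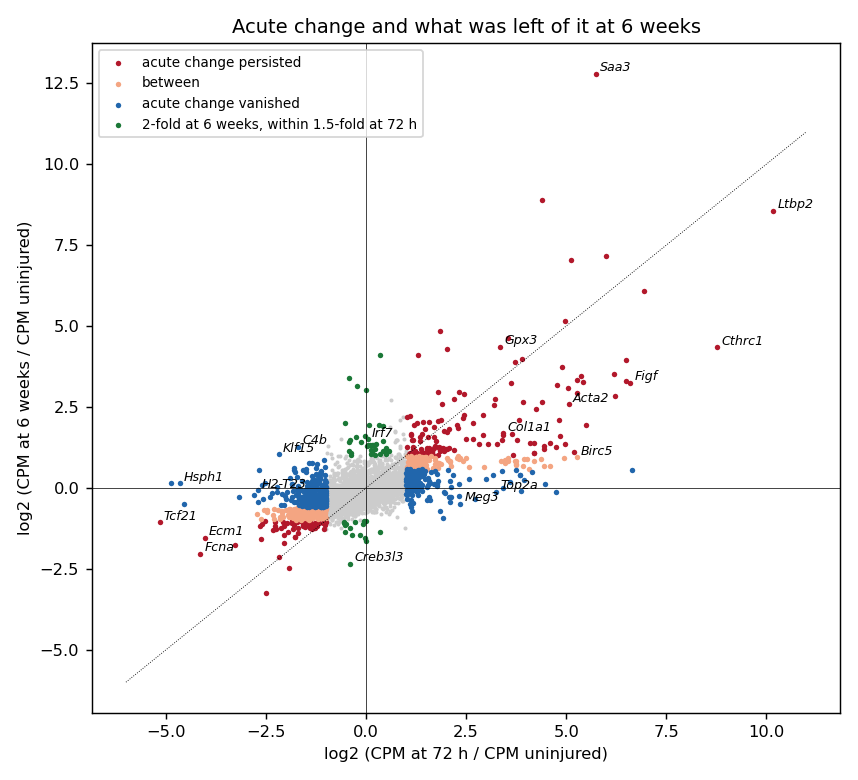
Each point is 1 of the 6306 genes, with the log2 ratio of 72 h to uninjured on the x axis and of 6 weeks to uninjured on the y axis, and equal change on the dotted line. Red genes persisted, blue genes had vanished at 6 weeks, and green genes were 2-fold away at 6 weeks alone. Of the genes away from the uninjured level at 72 h, 148 of 422 higher and 69 of 610 lower are red.

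Changes seen at 6 weeks with a 72 h level within 1.5-fold of uninjured were few, with 35 genes higher and 16 lower. Fhl2, a LIM domain cofactor (28.7, 35.8 and 112 CPM), Inmt, a methyltransferase (35.6, 29.8 and 105 CPM), Irf7 and Mt2 were among those higher. Creb3l3, a membrane-bound transcription factor (50.4, 38.3 and 9.92 CPM), Spon2, a secreted matrix protein (242, 241 and 77.0 CPM), and the imprinted gene Ndn (106, 104 and 36.3 CPM) were among those lower.

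In further lists a minority of members differed, to be read against the 5.04% of all genes that were at least 2-fold higher and the 3.84% that were lower. Of 9 imprinted growth genes, 4 were at least 2-fold lower at 6 weeks and none higher (median log2 ratio -0.73), namely Meg3, Plagl1, Ndn and Peg3. Of 16 unfolded protein response genes, 4 were higher and none lower, among them Ddit3, a transcription factor of prolonged stress (89.2 against 20.5 CPM), and Herpud1, a component of protein degradation at the endoplasmic reticulum (161 against 40.7 CPM). Of 22 TGF-beta and BMP genes, 3 were higher, among them Ltbp4, which binds latent TGF-beta (135 against 53.4 CPM), and Smad6, an inhibitory SMAD, was the 1 lower (26.8 against 54.9 CPM). Among chemokine genes, Ccl19, a ligand that attracts lymphocytes, and Cxcl12, which retains stem cells and leucocytes, were the 2 of 9 higher (194 against 69.5 CPM and 5689 against 2804 CPM). Ccl7, a monocyte attractant, was lower (68.5 against 141 CPM). With cells thinned to 5000 UMIs, 1 of 9 was higher and none lower. Of 17 growth factor and receptor genes Igfbp3 was higher and Pdgfrl lower, and of 10 basement membrane genes Lama2 alone was higher. Of 9 YAP and SRF target genes, Fhl2 and Crim1 were the 2 higher and none was lower. Of 14 glycolysis genes 1 was higher, Pgk1, and 1 lower, the lactate carrier Slc16a3, and a single cholesterol synthesis gene reached 20 CPM and was within 2-fold. For the chemokine, growth factor, basement membrane, glycolysis and TGF-beta lists these are counts of 1 to 3 genes and no result about the list.

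Position along the lobule gave a last view, with the caution that the study picked its zonation genes on the uninjured library used here. Of 50 portal-associated HSC genes measured, 11 were at least 2-fold higher at 6 weeks than at 72 h and 3 lower. Their median log2 ratio was 0.53. Over all genes 5.04% were as much higher and 3.84% as much lower. Counted over the 52 portal-associated genes with 20 CPM in any of the 3 libraries, 18 were at least 2-fold below uninjured at 72 h. For all genes that share was 9.67%. Of 28 central-associated genes 2 were higher at 6 weeks than at 72 h and 4 lower (median log2 ratio 0.06). Rgs4 (108, 40.4 and 186 CPM) and Hsd11b1, which regenerates active glucocorticoid (861, 338 and 1121 CPM), were portal-associated genes with levels above uninjured at 6 weeks. Sectm1a was a central-associated gene with its highest level in the 72 h library (62.0, 236 and 32.5 CPM), and Spon2 another that was low at 6 weeks.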

How the data were processed

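Droplet single-cell RNA-seq (10x Genomics 3' v2) was used. Per the submitters' processing notes and the methods of the study, reads were mapped to mm10 by the authors, using Cell Ranger 2.1.0. The deposited values are raw UMI counts in a gene by cell matrix. Plate-based libraries, which the labels do not place in single groups, were not used here.

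A gene had to be seen in at least 3 cells of its library. A cell needed at least 300 genes and at most 30% mitochondrial UMIs. UMIs were summed per library and expressed as CPM, with exact Poisson and binomial (Clopper-Pearson) intervals at 95%, and ratios used a floor of 3 UMIs for genes at 0. PCR copies were collapsed by the UMIs, and intervals cover counting error only. Shares of cells were taken after thinning to 5000 UMIs. No test was possible with 1 library per condition of 3 pooled mice. A cell with UMIs of at least 3 markers of another cell type, counted at full depth, was an other-type cell. Doublets were kept and left out in an alternative. The caller, made for this work, marked 427 cells at 72 h and 238 at 6 weeks, and found 74 of 100 simulated doublets planted among 2300 cells. Each planted doublet joined a cell of the 6-week HSC library to a 6-week cell of the other digestion. How well the caller finds doublets made of HSCs alone was not tested. Ratios and intervals were tested on simulated data. The tools were scikit-learn 1.9.0, scipy 1.17.1, pandas 2.3.3 and numpy 2.4.6 under Python 3.11.15.

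Named genes were the 4 markers Saa3, Gpx3, Mki67 and Acta2, the 20 largest ratios each way at 50 CPM or more, the 8 largest changes of each class of acute and late change, and the members of 36 gene lists past 2-fold, leaving out mitochondrial, ribosomal, Gm and Rik genes from the rankings. The text names a choice of these. The comparison, markers and lists were chosen with earlier results of these data known. Alternatives varied scaling, depth, cell sets, the CPM minimum and the fold.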

Additional observations from a re-analysis of the deposited data

Results flagged for a closer look

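Klf15 and C4b moved in opposite directions in the injured libraries, each by at least 2-fold against uninjured HSCs. Klf15 was 4.53 times lower at 72 h and 2.05-fold higher at 6 weeks, a 9.26-fold gap between the injured states. C4b was 3.24 times lower at 72 h and 2.40-fold higher at 6 weeks, a 7.78-fold gap. The difference was not tested, since each state is 1 library, and both comparisons share the uninjured cells.

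Saa3 was also seen in a library outside the comparison, the 6-week cells of the other digestion (protocol 1), at 13.0 CPM (404 UMIs, 95% interval 11.8 to 14.3 CPM) against 2.50 CPM in its uninjured counterpart (1.93 to 3.19 CPM). That is a 5.19-fold higher level, far below the 457 CPM of the 6-week HSC isolation.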

How the results depend on the processing

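Under the 13 alternatives, 2 of them added after seeing the data (cells with no heat shock UMI, and totals without ribosomal protein genes), each marker's ratio kept its direction wherever it was computed. No replicate could be left out with 1 library per condition. No paired analysis was possible because no condition has a second library.

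At 3-fold, 81 genes were higher and 104 lower at 6 weeks, 58 raised genes persisted and 42 vanished, and 6 lowered genes persisted and 53 vanished. At 1.5-fold, 741 were higher and 691 lower. At 50 CPM, 113 were lower, 98 raised genes persisted and 77 vanished, and 40 lowered genes persisted and 195 vanished. At 5 CPM, 520 were lower, 285 raised genes persisted and 351 vanished, and 116 lowered genes persisted. Without dividing cells 144 were lower. With median-of-ratios scaling 227 raised and 28 lowered genes persisted. Without ribosomal protein genes in the totals, 272 raised genes vanished and 40 lowered genes persisted, and 246 were higher and 313 lower (44.0% higher in place of 56.8%). In cells with no heat shock UMI, 114 lowered genes persisted.

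The Saa3 ratio was 79.2 thinned, 74.1 by mean per-cell CPM, 37.5 without other-type cells, 113 without dividing cells and 226 in cells with no heat shock UMI. In the last 3 settings Gpx3 was at 1.91, 1.90 and 3.57, Mki67 at 0.1905, 0.4827 and 0.25, and Acta2 at 0.1875, 0.1663 and 0.1604. Gpx3 was at 2.05 by median-of-ratios scaling, and thinned it was at 1.96, under 2-fold. Acta2 was at 0.1842 by mean per-cell CPM. The cause of these moves was not tested beyond what each alternative leaves out. Shares of cells with a UMI fell with thinning, as that of Saa3 at 6 weeks (33.6% unthinned, 19.96% at 5000 and 9.08% at 2000 UMIs).

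One pool of 3 mice per condition limits every statement to these libraries.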
